A study of Mus musculus with 2 samples.

Results

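The stretch of the mouse ribosomal DNA (rDNA) repeat that starts directly after position 13403 and ends directly before position 14601 was examined, which holds the transcription terminators and the replication fork barrier just behind the 3' end of the transcribed part. Positions are those of chrR, the repeat sequence that the deposited files add to the mm10 build, whose last covered position is 45306. The segment was taken by position alone, and its 1197 bp were divided into 120 bins of 10 bp on each strand (the last of 7 bp), 240 bins out of 9064 on the whole repeat. The position of the transcript end, and that the segment holds the terminators and the barrier, come from the definition of the segment. They were not checked against an annotation. No sequence of the repeat was used here, so no terminator sequence is printed. The data are END-seq, in which an adapter is ligated to broken DNA ends, so that each read begins at such an end. CD43- B cells came from the spleens of mice aged 4 to 8 weeks. They gave 1 library of S-phase cells activated for 24 to 28 h with anti-CD40 at 1 µg/mL and IL-4 at 25 ng/mL. They also gave 1 library of quiescent G1-phase cells cultured without these agents. The libraries are called S and G1 below, and where a pair of values is given without names the S value comes first. Both titles begin with ATR+c, which the labels do not explain, and the number of mice behind each library was not stated in the labels. The reads are DNA, so B cell markers could not be checked as expression.

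The rDNA repeat is transcribed by RNA polymerase I, and downstream of the 28S gene lie several copies of a short element, the Sal box. The protein TTF1 binds these boxes, ends polymerase I transcription there, and stops replication forks that arrive against the direction of transcription. The repeats are thereby replicated largely in the direction in which they are transcribed. A fork broken at such a barrier leaves a single free DNA end, whose reads lie on 1 strand, whereas a break with both ends free gives reads on both. A plus-strand read extends to the right of its end, away from the transcribed part before it, and a minus-strand read extends to the left, toward it.

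Plus-strand ends in the segment were several times more frequent in the S-phase library, and minus-strand ends were nearly level. The plus strand held 4549 reads in S and 1229 in G1, out of 21997695 and 28933109 reads in all. Scaled to reads per 1000000 reads of the library (RPM), that is 207 and 42.5 RPM, a ratio of S over G1 of 4.87 (95% interval 4.57 to 5.19). The minus strand held 559 and 634 reads, 25.4 and 21.9 RPM, a ratio of 1.16 (1.03 to 1.301). With each position capped at 28 reads in S and 38 in G1 the plus-strand ratio was 2.34, and with the segment extended by 200 bp to the right the minus-strand ratio was 0.869. With 1 library per group there is no test, and every interval here covers counting error only, so the values describe these 2 libraries. Reads carry no molecular identifiers, so copies of 1 molecule cannot be told from separate ends, which makes the intervals too narrow at stacked positions.

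The segment makes up 2.64% of the length of the repeat. It held 17.1% (16.6 to 17.5, exact Clopper-Pearson 95% interval) of all plus-strand rDNA reads in S and 3.57% (3.37 to 3.77) in G1. Of minus-strand rDNA reads it held 3.19% (2.93 to 3.46) and 2.58% (2.38 to 2.78). The plus strand carried 89.1% (88.2 to 89.9) of the segment's reads in S and 66.0% (63.8 to 68.1) in G1, against 56.6% and 58.1% on the rest of the repeat. In reads, the plus-strand share of the segment was thus 23.1 percentage points higher in S. With each covered position counted once it was 72.03% (67.4 to 76.4) against 66.6% (60.9 to 71.9), a difference of 5.48 points with overlapping intervals. In the segment 44.2% of minus-strand bins had no read in either library, against 25.7% outside it. The part of this in the plus-strand shares was not tested.

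**Figure D1:**
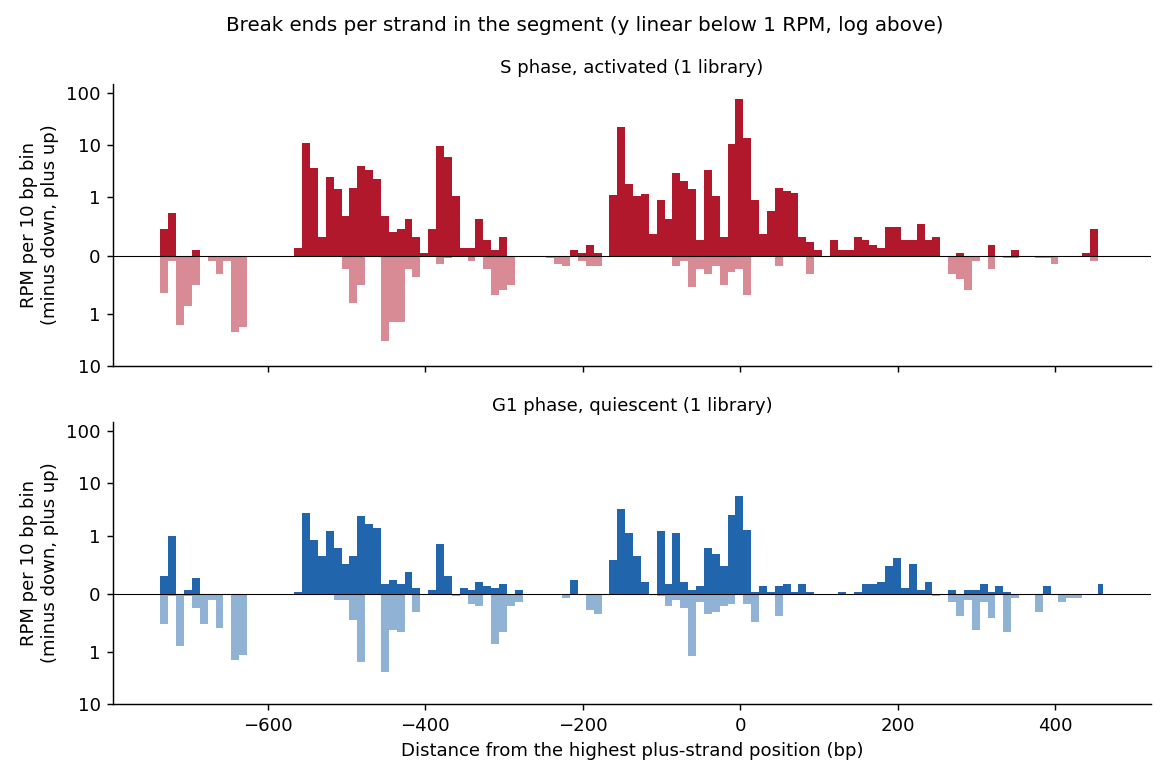
RPM in 10 bp bins of the segment, plus strand upward and minus strand downward, against the distance in bp from the highest plus-strand position, 14140; the y axis is linear below 1 RPM and logarithmic above. In the S-phase library (top) the highest plus-strand bin reaches 77.2 RPM and in the G1 library (bottom) 5.77 RPM, while minus-strand bins stay at or below 3.27 and 2.45 RPM.

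Most plus-strand bins with enough reads were higher in S, and none was lower by the size set for a call. A minimum of 20 reads in either library was met by 30 plus-strand bins, of which 20 had a ratio of 2 or more and 0 had a ratio of 0.5 or less. Over all plus-strand bins of the repeat that met the same minimum, 12.8% were higher and 33.6% lower, and outside the segment alone 9.48% were higher. Of the 30 bins, 12 met the minimum in S only, where a high S-phase count let them in, and are no sign of a difference by themselves. Among the 18 that met it in the G1 library, 10 were higher and 0 lower in S. The share over the repeat under this G1 minimum was not counted, so these numbers are descriptions. For the minus strand, 9 bins met the minimum, of which 2 were higher and 2 lower, against 12.2% and 35.1% over the repeat. All of these called bins met the minimum only in the library where they were higher. Their calls are therefore no sign of a difference by themselves.

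Peak bins were partly shared by the libraries, and how often they are shared over the repeat was not counted. A bin counted as a peak when its reads reached 5 times the median over the repeat for that library and strand. On the plus strand 43 of 120 bins were peaks in S and 25 in G1, 23 of them in both, against 16.5% and 15.1% of all bins of the repeat. On the minus strand 31 and 22 bins were peaks, 16 of them in both, which is near the 27.7% and 18.4% of the repeat. Empty in both libraries were 30 plus-strand bins (25.0%, against 23.2% outside the segment) and 53 minus-strand bins (44.2%, against 25.7%). Across the 120 bins, log2(reads + 1) of the libraries had a Pearson r of 0.811 (plus strand) and 0.734 (minus strand). Across the 1197 single positions it was 0.622 and 0.473. These are descriptions, since bins and positions share libraries and base composition.

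Joined where at most 1 other bin lay between them, the S-phase peak bins of the plus strand made 8 clusters. These held 97.4% of the segment's plus-strand reads in S and 90.7% in G1. The clusters were drawn on the S-phase reads, so their ratios are descriptions. A single cluster at 13974 to 14213 held 3246 reads in S and 600 in G1, which is 71.4% of the segment's plus-strand reads in S, at a ratio of 7.12 (6.52 to 7.78). Without it the plus-strand ratio of the segment was 2.72. The cluster at 13744 to 13783 held 375 and 36 reads, a ratio of 13.7 (9.72 to 19.9), the highest among clusters with over 100 reads. The cluster at 13584 to 13723 held 725 and 401 reads, a ratio of 2.38 (2.102 to 2.69). In reads, the interval of the cluster at 13584 did not overlap those of the other 2. With each covered position counted once the ratios were 1.55 (1.16 to 2.09) at 13974, 2.59 (1.16 to 6.34) at 13744 and 1.19 (0.817 to 1.75) at 13584, and all 3 intervals overlapped.

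The remaining 5 clusters were small, with 10 to 26 reads in S. In the first 20 bp of the segment, up to 13423, 26 and 38 reads gave a ratio of 0.8999 (0.525 to 1.52). At 14324 to 14343, 22 and 32 reads gave 0.904 (0.501 to 1.61). These clusters, which flank the strong ones, were level between the libraries within counting error. The cluster at 13804 to 13813 held 14 and 6 reads, a ratio of 3.07 (1.11 to 9.74), and that at 14364 to 14373 held 12 and 2 reads, 7.89 (1.76 to 72.6). At 14584 to 14593 there were 10 reads in S and 0 in G1, at least 4.38-fold higher against the level of 3 reads that a count of 0 allows.

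The highest position of the segment was 14140 in both libraries, and it was also the highest plus-strand position of the whole repeat in S and the third in G1. It held 1376 reads in S and 111 in G1, 62.6 and 3.84 RPM, a ratio of 16.3 (13.4 to 19.97). It alone carried 30.2% of the segment's plus-strand reads in S and 9.03% in G1. The minus strand had 0 reads at 14140 in either library, and 26 and 10 reads within 15 bp of it.

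Around 14140 a few single positions carried most of the ends. To its left, 14138 held 135 reads in S and 10 in G1, and 14137 held 100 and 19. To its right, 14145 held 161 and 11 reads, a ratio of 19.3 (10.5 to 39.3). At 14126, which lies 14 bp before the summit, 129 and 46 reads gave a ratio of only 3.69 (2.62 to 5.28). The intervals of 14126 and 14145 thus did not overlap, though they cover counting error only and are too narrow at stacked positions. In G1 14126 was the second highest position of this group, and in S 14145 and 14138 stood above it. The 20 bp to the left of the summit held 492 reads in S and the 20 bp to its right 370, against 122 and 56 in G1.

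**Figure D2:**
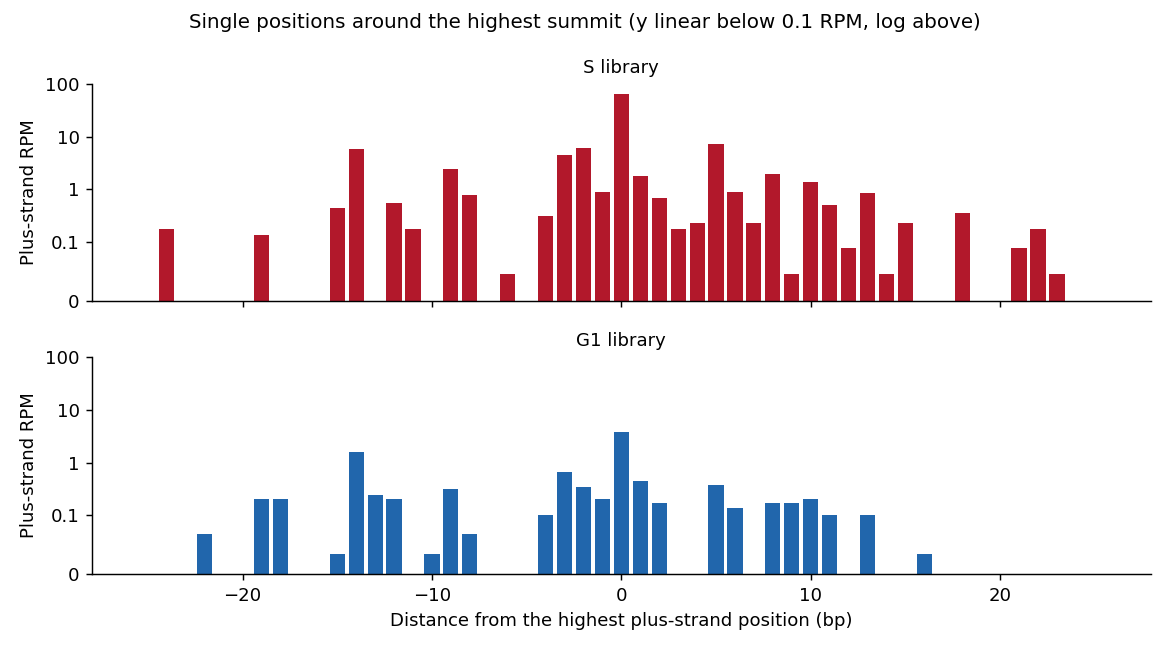
Plus-strand RPM at single positions up to 25 bp from position 14140 (distance 0) in the S library (top) and the G1 library (bottom); the y axis is linear below 0.1 RPM and logarithmic above. The position at 0 reaches 62.6 RPM in S and 3.84 in G1, and the position at −14 bp stands second in G1 with 1.59 RPM but behind those at 5 and −2 bp in S.

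Inside the clusters 6 plus-strand summits stood out, defined after the values were seen as positions with at least 50 reads in S that were the highest within 15 bp. They lay at 13591, 13662, 13761, 13991, 14102 and 14140. The highest G1 position nearby was the same base at 3 of them and 1 bp away at the other 3, with a tie at 14102, where 14103 and 14110 both held 11 reads; summits were not called separately in G1. Windows of 15 bp centred on the summits held 71.1% of the segment's plus-strand reads in S and 46.5% in G1, a description, since the summits were chosen on their S reads and a higher share in S is built into that choice.

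The size of the difference varied between summits. At 13761 the position held 118 and 7 reads, and its 15 bp window 296 and 31, a ratio of 12.6 (8.66 to 18.8). At 13991 the position held 137 and 53 reads and the window 510 and 115, a ratio of 5.83 (4.76 to 7.205). The neighbouring base 13992 held 132 reads in S and 3 in G1, a ratio of 57.9 (19.4 to 284), while 13990 held 26 and 24. The ends of this summit were therefore spread over several bases in S and lay mostly on 13990 and 13991 in G1.

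At 13591 the position held 96 and 20 reads and the window 318 and 104, a ratio of 4.02 (3.21 to 5.07). The summit at 13662 differed least, with 58 and 28 reads at the position and 150 and 110 in the window, a ratio of 1.79 (1.39 to 2.32). At 14102 the position held 62 and 9 reads and the window 70 and 30, a ratio of 3.07 (1.97 to 4.88). This last ratio rested on its summit position: without it the window held 8 and 21 reads, a ratio of 0.501 (0.192 to 1.18). At the other 5 summits the window without its summit position kept a ratio above 1, from 1.48 at 13662 to 9.75 at 13761.

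**Figure D3:**
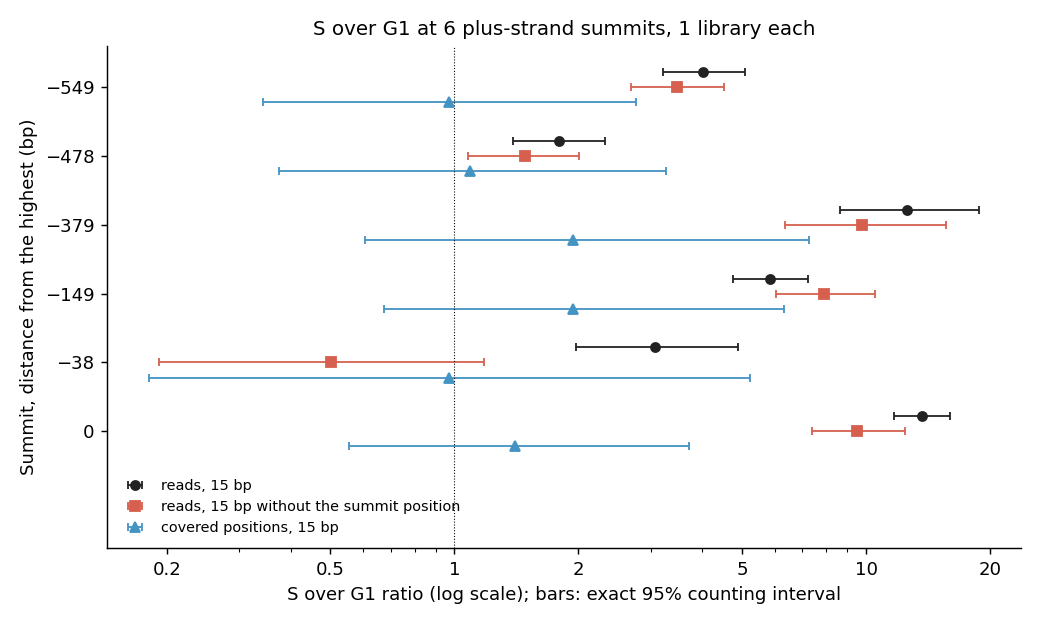
Ratio of S over G1 (log axis) at the 6 plus-strand summits, named by their distance in bp from position 14140, for reads in a 15 bp window, for the same reads without the summit position, and for covered positions in the window; bars are exact 95% counting intervals. Read ratios run from 1.79 at −478 bp to 13.7 at 0, the ratio at −38 bp falls to 0.501 without its summit, and all 6 intervals for covered positions include 1.

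Counted as distinct positions, the difference was smaller. Ends were found at 291 of the 1197 plus-strand positions in S and at 197 in G1, scaled to all covered positions of each library a ratio of 1.44 (1.19 to 1.73). The S-phase library covered more positions of the segment from fewer reads in all. The same held for the whole libraries, with 7752336 covered positions in S and 7538681 in G1, at a mean of 2.84 and 3.84 reads each. On the minus strand of the segment 113 and 99 positions were covered, a ratio of 1.11 (0.8399 to 1.47). Much of the read difference on the plus strand therefore lay in how many reads each position carried, with a mean of 15.6 reads per covered position in S and 6.24 in G1, while the median was 3 and 4. Whether such stacks are many cells broken at 1 base or copies of fewer molecules was not tested.

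Reads were concentrated on few bases in S. To reach 50% of the segment's plus-strand reads, the 8 highest positions sufficed in S, and 29 were needed in G1. For the minus strand 21 and 19 positions were needed. Of the 10 highest plus-strand positions of the whole repeat, 8 lay in the segment in S and 1 in G1. The lists of the 10 highest plus-strand positions of the segment shared 5 between the libraries. The 124 plus-strand positions covered in both libraries were 42.6% of those of S and 62.9% of those of G1, and held 85.9% and 79.8% of the reads.

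Under the rule used for bins, 39 single plus-strand positions met the minimum, of which 37 had a ratio of 2 or more and 0 a ratio of 0.5 or less, against 24.3% and 40.1% over the repeat. As 30 of these met the minimum in S only, the count is a description. Of the 9 that met it in G1, 7 were higher in S, and the 2 that were not were 13419 (14 and 27 reads) and 13990. For these too the share over the repeat was not counted.

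Among the plus-strand bins that met the minimum, the 5 highest ratios were at 14204 (27 and 1 reads, 35.5, interval 5.85 to 1450), 14154 (21 and 1, 27.6), 14074 (32 and 2, 21.04), 13764 (133 and 9, 19.4) and 14134 (1698 and 167, 13.4). The first 3 are shoulders of the large cluster, where the G1 library held nearly no reads. The 5 lowest were at 13414 (16 and 29 reads, 0.726), 14034 (21 and 36, 0.767), 14104 (23 and 20, 1.51), 13674 (49 and 41, 1.57) and 14004 (23 and 19, 1.59). The bin at 14034 lies inside the large cluster, between the summits at 13991 and 14102, and its interval of 0.426 to 1.35 included 1. Even within the large cluster, then, the excess in S was not uniform.

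The minus strand showed several modest peaks and no dominant one. Its largest S-phase cluster at 13684 to 13733 held 148 and 117 reads, a ratio of 1.66 (1.297 to 2.14), with its summit at 13686 in both libraries (31 and 37 reads). The cluster at 13474 to 13513 held 98 and 91 reads, a ratio of 1.42 (1.05 to 1.91), with its summit at 13501 in both (32 and 25 reads). The cluster in the first 50 bp, up to 13453, held 82 and 50 reads, 2.16 (1.499 to 3.13), and that at 14074 to 14153 held 65 and 74 reads, 1.16 (0.815 to 1.63). The minus-strand peaks thus lay mainly in the left part of the segment. Those named here had lower ratios than the plus-strand clusters at 13744 and 13974. The ratio of 2.16 in the first 50 bp was, however, near the 2.38 (2.102 to 2.69) of the plus-strand cluster at 13584.

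Bin by bin, the 2 minus-strand bins called higher in S were neighbours, 13694 (32 and 18 reads, 2.34, interval 1.27 to 4.42) and 13704 (31 and 19 reads, 2.15, 1.17 to 4.02). The bins called lower were 13654 (11 and 46 reads, 0.315, 0.147 to 0.616) and 14074 (12 and 35 reads, 0.451, 0.213 to 0.8897). Of the remaining 5, those at 13424, 13504, 13494 and 13684 had ratios from 1.33 to 1.82, and 13824 stood at 0.789 (0.387 to 1.56). By single positions, 13656 had 11 and 36 reads and 13689 had 23 and 6.

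Outside the span from 13584 to 14213 the plus strand held few reads, while the minus strand held 182 of its 559 S reads before 13584. After the large cluster, from 14214 to the end, the plus strand held 121 and 108 reads, a ratio of 1.47 (1.13 to 1.93), and the minus strand 52 and 91, 0.752 (0.524 to 1.07). Before the cluster at 13584, the plus strand held 31 and 49 reads, a ratio of 0.832 (0.513 to 1.33), and the minus strand 182 and 159, 1.51 (1.21 to 1.87). At the left border the plus-strand bin just outside held 5 and 2 reads and the bin just inside 10 and 9. At the right border the last 10 bp inside held 4 and 5 plus-strand reads and the first 10 bp outside 3 and 17, with none on the minus strand on either side.

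The spacing of the peaks was irregular. The summits of the 8 plus-strand clusters were 172, 170, 46, 333, 201, 30 and 219 bp apart, with a median of 172 bp. The 6 local summits were 71, 99, 230, 111 and 38 bp apart. The autocorrelation of the plus-strand profile was taken as log2(reads + 1) per position at lags of 20 to 400 bp. It was highest at 66 bp in S (r = 0.165 over 1131 pairs of positions) and at 48 bp in G1 (r = 0.136 over 1149 pairs). At 46 bp it was 0.165 in S and 0.129 in G1, near the highest in both. Such weak correlations in sparse counts show no repeat length. The spacing could not be set beside the Sal boxes, since their positions on this sequence were not used here.

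Parts of the segment had no read on a strand in either library, which bears on where a peak could be seen. On the plus strand the stretches of at least 30 bp without reads were 13454 to 13578, 13855 to 13925, 14494 to 14528 and 14532 to 14578. The minus-strand ones were 13509 to 13628, 13855 to 13893, 13964 to 14042, 14193 to 14227 and 14229 to 14390. The summit at 13591 lies 13 bp after the end of the longest plus-strand stretch, and the summits at 13591 and 13991 both lie within minus-strand stretches, with 0 minus-strand reads within 15 bp in both libraries. As the minus strand had no read there in either library, it cannot be said whether those 2 summits were one-sided. At 14140, by contrast, the minus strand was covered on both sides.

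Over the whole repeat, covered places on the plus strand matched those of the minus strand best at a shift of 75 bp to the right (r = 0.408, against 0.0437 without a shift). Within the segment the best shift was 64 bp (r = 0.298). How reads with several matches were placed is not given in the sources used here, and its part in the stretches without reads was not tested. The minus-strand stretch from 14193 to 14227, moved 75 bp to the left, falls on 14118 to 14152, where the plus strand held 2205 and 287 reads. The plus-strand summit at 14140 thus had no minus-strand reads at that shift. The shift matches covered places over the repeat and not both ends of a break. It therefore does not show whether the summit was one-sided.

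**Figure D4:**
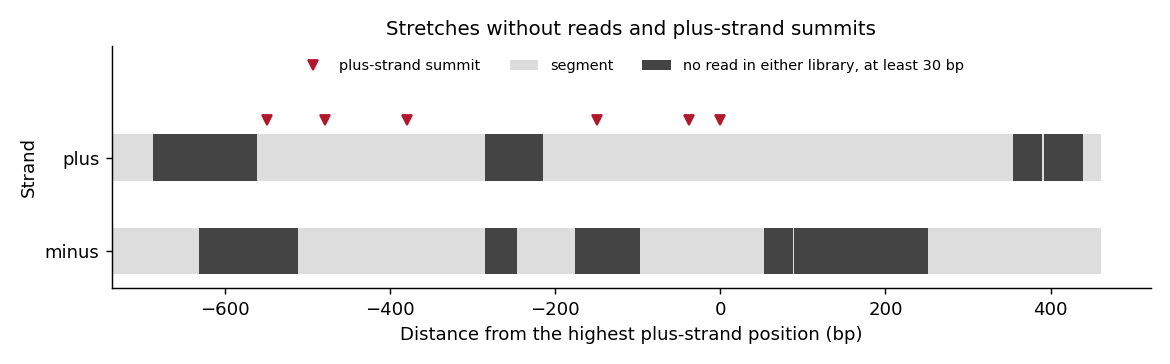
Map of the segment on both strands against the distance in bp from position 14140, with stretches of at least 30 bp without a read in either library in dark grey and the 6 plus-strand summits as triangles. There are 4 plus-strand and 5 minus-strand stretches, and the summits at −549 and −149 bp lie over minus-strand stretches without reads.

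Compared with the rest of the repeat, the segment had the highest ratio on the plus strand, while its minus-strand ratio lay within the range of the other windows; this is a description with no test. Among 37 windows of the same length laid along the repeat, its plus-strand ratio of 4.87 ranked first, and the others ran from 0.582 to 1.21 with a median of 0.895. Its 207 RPM of plus-strand reads in S also ranked first, ahead of 76.1 RPM at 21783 to 22979, whereas its 42.5 RPM in G1 ranked 7 of 37. Its minus-strand ratio ranked 7, and the highest was 1.496 in the window just before it, at 12207 to 13403. In distinct positions its plus-strand ratio of 1.44 ranked first with the next at 1.403 (6222 to 7418), so that by this measure it was close to the next window.

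By strand balance in reads the segment was again the first window, with a plus-strand share 23.1 points higher in S (5.48 points with positions counted once) against a range of −20.1 to 10.9 points in the others. The share of plus-strand reads on the single highest position was 30.2% in S, first of 37, and 9.03% in G1, 4 of 37. Its direct neighbours did not share the plus-strand excess, with ratios of 0.913 (0.803 to 1.04) in the 1197 bp before it and 0.869 (0.798 to 0.945) in the 1197 bp after it. The minus-strand ratios of these neighbours stood at 1.496 (1.32 to 1.698) before and 0.631 (0.575 to 0.692) after.

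**Figure D5:**
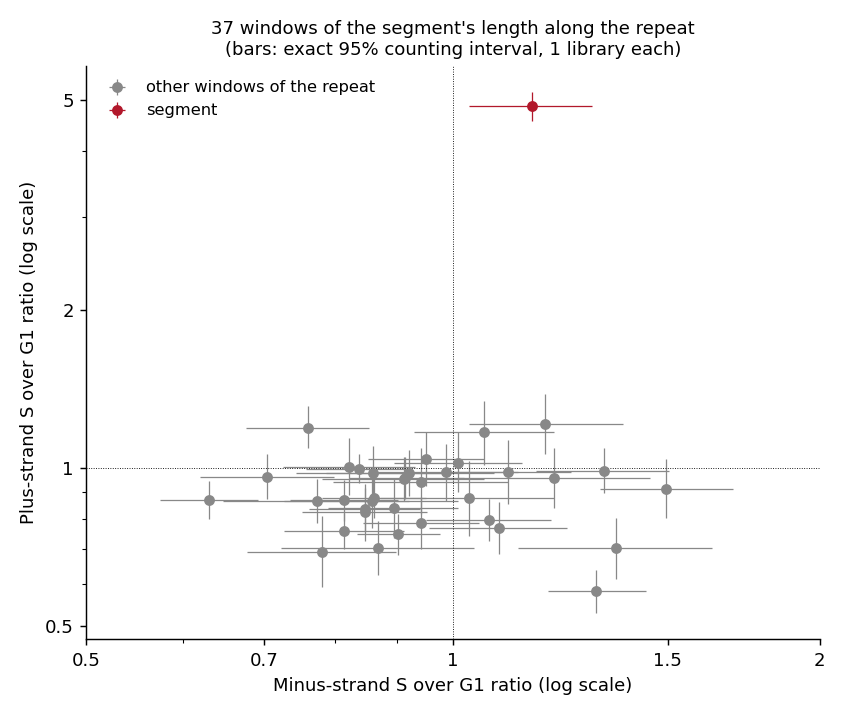
Plus-strand against minus-strand ratio of S over G1 (both axes logarithmic) for 37 windows of 1197 bp along the repeat, 1 point per window, with exact 95% counting intervals. The segment lies at 4.87 (plus strand) and 1.16 (minus strand), and the other 36 windows lie between 0.582 and 1.21 on the plus strand.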

How the data were processed

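The authors deposited 1 bedGraph file per library and strand, holding raw counts of ends at each base as whole numbers, without scaling, per the file headers and the values. Bowtie 1.1.2, SAMtools 1.11, bedtools and mm10 are named in the submitters' processing notes. How duplicates and reads with several matches were handled, and where chrR came from, is not given in the sources used here. Python 3.11.15 with pandas 2.3.3, numpy 2.4.6 and scipy 1.17.1 gave sums and intervals, and matplotlib 3.10.9 the plots. Libraries held 21997695 (S) and 28933109 (G1) reads, and 3 reads correspond to 0.136 and 0.104 RPM. A bin was called when its ratio reached 2, or fell to 0.5 or below, and either library had 20 reads there, a count of 0 being set to 3. Intervals of ratios are exact 95% intervals conditional on the sum of both counts, also for numbers of positions. Calls and intervals were tested on simulated counts with counting error only. Such counts hold no copies of molecules, so they do not show how calls and intervals hold at stacked positions. The text names all plus-strand S-phase clusters, the largest minus-strand clusters (overlapping ones once), leading positions, the 5 highest and 5 lowest bins per strand, and the border bins; other items, among them 13990, the parts outside the clusters and the stretches without reads, were chosen after their values were seen. The segment and all rules were chosen with earlier results of these data known.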

Additional observations from a re-analysis of the deposited data

How the results depend on the processing

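With 1 library per group no replicate could be left out. No paired analysis was possible because each group has a single library. A ratio counted as moved when it left the counting interval of the reported one, the difference in plus-strand share when it changed by more than the distance from the midpoint of the wider share interval to its bounds, and a count when it changed by over 1.5 times; 35 of 85 alternative values moved and 50 did not. The plus-strand ratio stayed above 1 throughout: 5.42 scaled to rDNA outside the segment, 1.44 with each covered position counted once, 2.34 with stacks capped at 28 reads in S and 38 in G1, 3.73 without position 14140, 4.30 with the segment extended by 200 bp to the right, and 2.72 without the cluster at 13974 to 14213. The minus-strand ratio turned to 0.869 with the segment extended by 200 bp. The difference in plus-strand share was 5.48 points with positions counted once, 14.4 with stacks capped, 20.3 without the highest positions, 30.4 with the extension and 18.1 without the large cluster. Plus-strand bins higher in S numbered 9 of 25 with positions counted once and at least 5 required, and 11 of 13 with a minimum of 50 reads, against 20 of 30; lower bins numbered 1 of 46 with a minimum of 10. Minus-strand higher bins numbered 8 of 28 with a minimum of 10 reads, 0 of 1 with 50, and 5 of 9 at a ratio of 1.5 and 0 of 9 at a ratio of 3, against 2 of 9. Minus-strand lower bins numbered 1 of 9 when scaled to rDNA or at a ratio of 3, 1 of 11 in 20 bp bins or bins shifted by 5 bp, 0 of 5 with positions counted once, 0 of 1 with a minimum of 50, and 7 of 28 with a minimum of 10. Single positions higher in S numbered 56 of 69 with a minimum of 10 reads and 16 of 16 with 50, against 37 of 39, an alternative chosen after seeing the data, as was leaving out the large cluster. With a minimum of 50, only 14140 and 13991 met it in G1 (111 and 53 reads), and S reads alone let in the others. Shares over the repeat under these alternative rules for bins and positions were not counted, so the numbers are descriptions. In 20 bp bins, which are fewer by construction, peak bins fell to 17 (S) and 6 (G1) on the plus strand and 7 and 6 on the minus strand; at 10 times the median they fell to 12 on the plus strand in G1 and to 18 (S) and 7 (G1) on the minus strand. Cluster ratios, added after seeing the data, moved in 10 of 50 alternatives and none of those at or above 2 fell below 1; the cluster at 13974 to 14213 ranged from 1.55 to 7.92. Depth limits single bins and small clusters most: the cluster at 14324 to 14343, with 22 and 32 reads, has an interval of 0.501 to 1.61. The cause of the other moves was not tested.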

Other observations

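Bins within 150 bp of the borders were looked at, a stretch chosen after its values were seen. Among those that met the minimum of 20 reads, the ones called went opposite ways on the 2 sides. Others were called neither way. Before the segment 2 of 3 plus-strand bins and 2 of 5 minus-strand bins were called higher in S and 0 lower. The minus-strand bin at 13374 to 13383 held 62 reads in S against 15 in G1, a ratio of 5.44 (3.06 to 10.3), and the plus-strand bin at 13314 to 13323 held 50 against 23, 2.86 (1.71 to 4.91). Behind the segment 0 were called higher, and 1 of 1 plus-strand and 3 of 4 minus-strand bins were called lower. The largest of them, on the minus strand at 14731 to 14740, held 62 against 227 reads, a ratio of 0.359 (0.267 to 0.478). Over the repeat 12.8% of such plus-strand bins were higher and 33.6% lower, and 12.2% and 35.1% of minus-strand bins. Among the bins called here, only those at 13314 and 14731 had 20 reads in both libraries. The others called met the minimum only in the library where they were higher. Their calls are therefore no sign of a difference by themselves.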
